A study of Sus scrofa with 4 samples.

Results

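The loci of 10 transcription factor genes tied to naive pluripotency and reprogramming were examined in ATAC-seq data of porcine fetal fibroblasts (PFFs): KLF2, KLF4, KLF5, KLF17, TFCP2L1, ESRRB, TBX3, NR5A2, MYC and MYCN. All 10 matched a RefSeq gene model of the build Sscrofa11.1, and the peaks that overlapped a model with 50 kb on both sides by at least 1 bp were taken, in each library apart. Peaks of the 4 libraries that overlapped by at least 1 bp were merged into regions, and 92 of 121788 regions lay in these windows, which spanned 1.45 Mb in all. ATAC-seq uses the Tn5 transposase to cut and tag open chromatin, so a peak is a stretch of DNA that was open in enough of the cells to stand out from the background of its own library. The groups were PFFs that over-expressed BRG1 from the vector pTK-642-BRG1 (libraries BRG1 1 and BRG1 4) and wild-type PFFs with pTK-642 (control 1 and control 4). All cells were skin fibroblasts under serum starvation. The promoter that drives BRG1 in the vector is not given in the sources used here. Nor do the labels state separate cultures for the libraries of a group, so p-values measure the spread between these samples only, which may be technical. The peak lists do not measure BRG1 itself, so the over-expression was not checked here. BRG1, encoded by SMARCA4, is the ATPase of BAF chromatin remodelling complexes, and the study asked how its over-expression in donor cells bears on chromatin openness and on embryos cloned from them.

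In mouse embryonic stem cells KLF2, KLF4 and KLF5, zinc finger proteins of the Krüppel-like family that bind GC-rich sites, sustain naive pluripotency with overlapping roles, and KLF17 marks the naive state in human cells. TFCP2L1, ESRRB, TBX3 and NR5A2 belong to the same network: TFCP2L1 is a grainyhead-like factor downstream of LIF and STAT3, ESRRB and NR5A2 are orphan nuclear receptors, and TBX3 is a T-box repressor that also patterns limbs. MYC and its paralog MYCN are helix-loop-helix factors that pair with MAX at E-boxes and drive growth. KLF4 and MYC are reprogramming factors, and in fibroblasts KLF4 and MYC are also known as genes that respond to serum.

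The lists held 96367 peaks in BRG1 1 and 90851 in BRG1 4, against 107475 in control 1 and 105954 in control 4. Depth relative to control 1 was 81.2% in BRG1 1, 92.6% in BRG1 4 and 93.5% in control 4. It was read from the lowest background among 2456 to 2905 peaks sampled per list. BRG1 4 stood apart with a median peak width of 541 bp, against 396 to 404 bp in the other 3 libraries, and 7785 of all regions had a peak in every library except BRG1 4. At most 0.202% of peak intervals were identical between a pair of libraries. The fibroblast label was checked against markers: 11 of 12 fibroblast genes had a peak within 1 kb of a gene end in all 4 libraries. The exception was FN1, with a weak end peak in BRG1 1 alone, at percentile 15.3 of −log10 p within its list. In the other libraries the nearest FN1 peak lay 5521 to 5527 bp from an end, in a region shared by all 4. Its percentiles were 93.4 in BRG1 4, 89.3 in control 1 and 90.3 in control 4. Over all coding genes, 68.2% had a peak within 1 kb of a gene end in all 4 libraries. In all 4 libraries such a peak was found at 2 of 6 keratinocyte markers (EPCAM, KRT10), 1 of 5 endothelial (KDR), 2 of 5 immune (CD3E, CD68), 2 of 5 melanocyte and glial (PMEL, MITF) and 2 of 4 muscle markers (MYOD1, DES). The immune marker ITGAM had one in BRG1 1 and control 1. The muscle marker PAX7 had one in BRG1 4 and both controls. The control peaks include a weak region at its end of lower coordinate, called in both controls and in neither BRG1 library. Of 5 markers of pluripotent cells none had an end peak in any library. In bulk samples, fewer cells with an open site and less opening per cell cannot be told apart.

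The 10 loci differed widely in how many open regions surrounded them. KLF2, KLF4, TFCP2L1, TBX3 and MYC sat among many open regions, while KLF5, KLF17, ESRRB, NR5A2 and MYCN had few. Regions with a peak in all 4 libraries numbered 12 around KLF2, 9 around TFCP2L1, 8 around MYC and 7 each around KLF4 and TBX3. They numbered 4 around NR5A2, 3 around ESRRB, 2 each around KLF5 and KLF17, and 1 around MYCN. Per 100 kb of window this was 11.7 for KLF2, higher than or equal to 95.4% of 19550 protein-coding genes, and 5.64 to 7.60 for TFCP2L1, TBX3, KLF4 and MYC (percentiles 56.9 to 74.4). It was 1.79 for KLF17, 1.71 for KLF5, 1.67 for NR5A2, 1.04 for ESRRB and 0.939 for MYCN, at percentiles 8.83 to 15.2. The median was 3.71 over the 10 genes and 4.93 over all coding genes. No locus lay between 1.79 and 5.64. Of the 10 windows, 7 held no other coding gene model. The windows of KLF2 (EPS15L1), KLF5 (PIBF1) and TFCP2L1 (CLASP1) each held 1. How many of their regions lay inside the neighbouring model was not counted, so the density around KLF2 is not that of KLF2 alone. Of the 92 regions, 6 lay within 1 kb of an end of another gene, 1 of them coding (CLASP1).

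**Figure D1:**
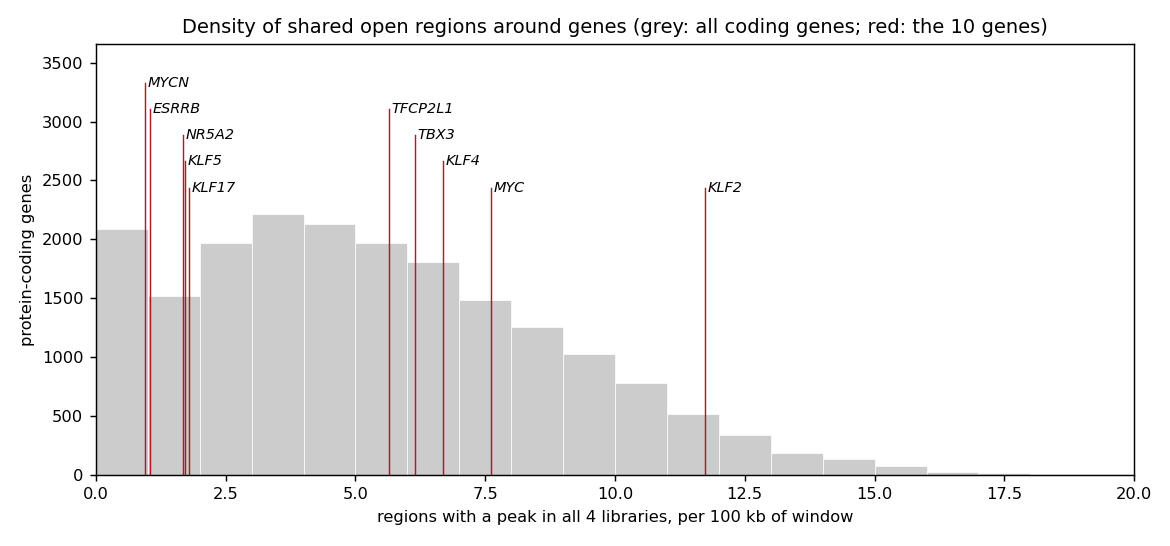
The x axis gives the number of regions with a peak in all 4 libraries per 100 kb of window (gene model with 50 kb on both sides), the grey bars count protein-coding genes, and each red line marks 1 of the 10 genes, its height serving only to place the name. KLF2 stands at 11.7, 4 genes lie between 5.64 and 7.60, and 5 genes lie at 1.79 or below.

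Of the 10 genes, 7 (70.0%) had a peak within 1 kb of a gene end in all 4 libraries, against 68.2% of all coding genes, so the share was near that of coding genes at large. The other 3, KLF17, ESRRB and NR5A2, had none in any library. The gene table gives no strand, so the end where transcription starts could not be told from the other, and exons, introns and UTRs could not be assigned. Positions are therefore given from the lower-coordinate or the higher-coordinate end of the model. Peaks were ranked by the percentile of their −log10 p within their own list. The lists were of unequal length, so orders of percentiles given gene by gene hold for these lists only. Peak height is given as tags, the whole-number pileup at the summit. It was recovered from the authors' fold and p-value and not scaled for depth. Whether a tag is a fragment, a read or a cut is not stated in the sources used here.

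**Figure D2:**
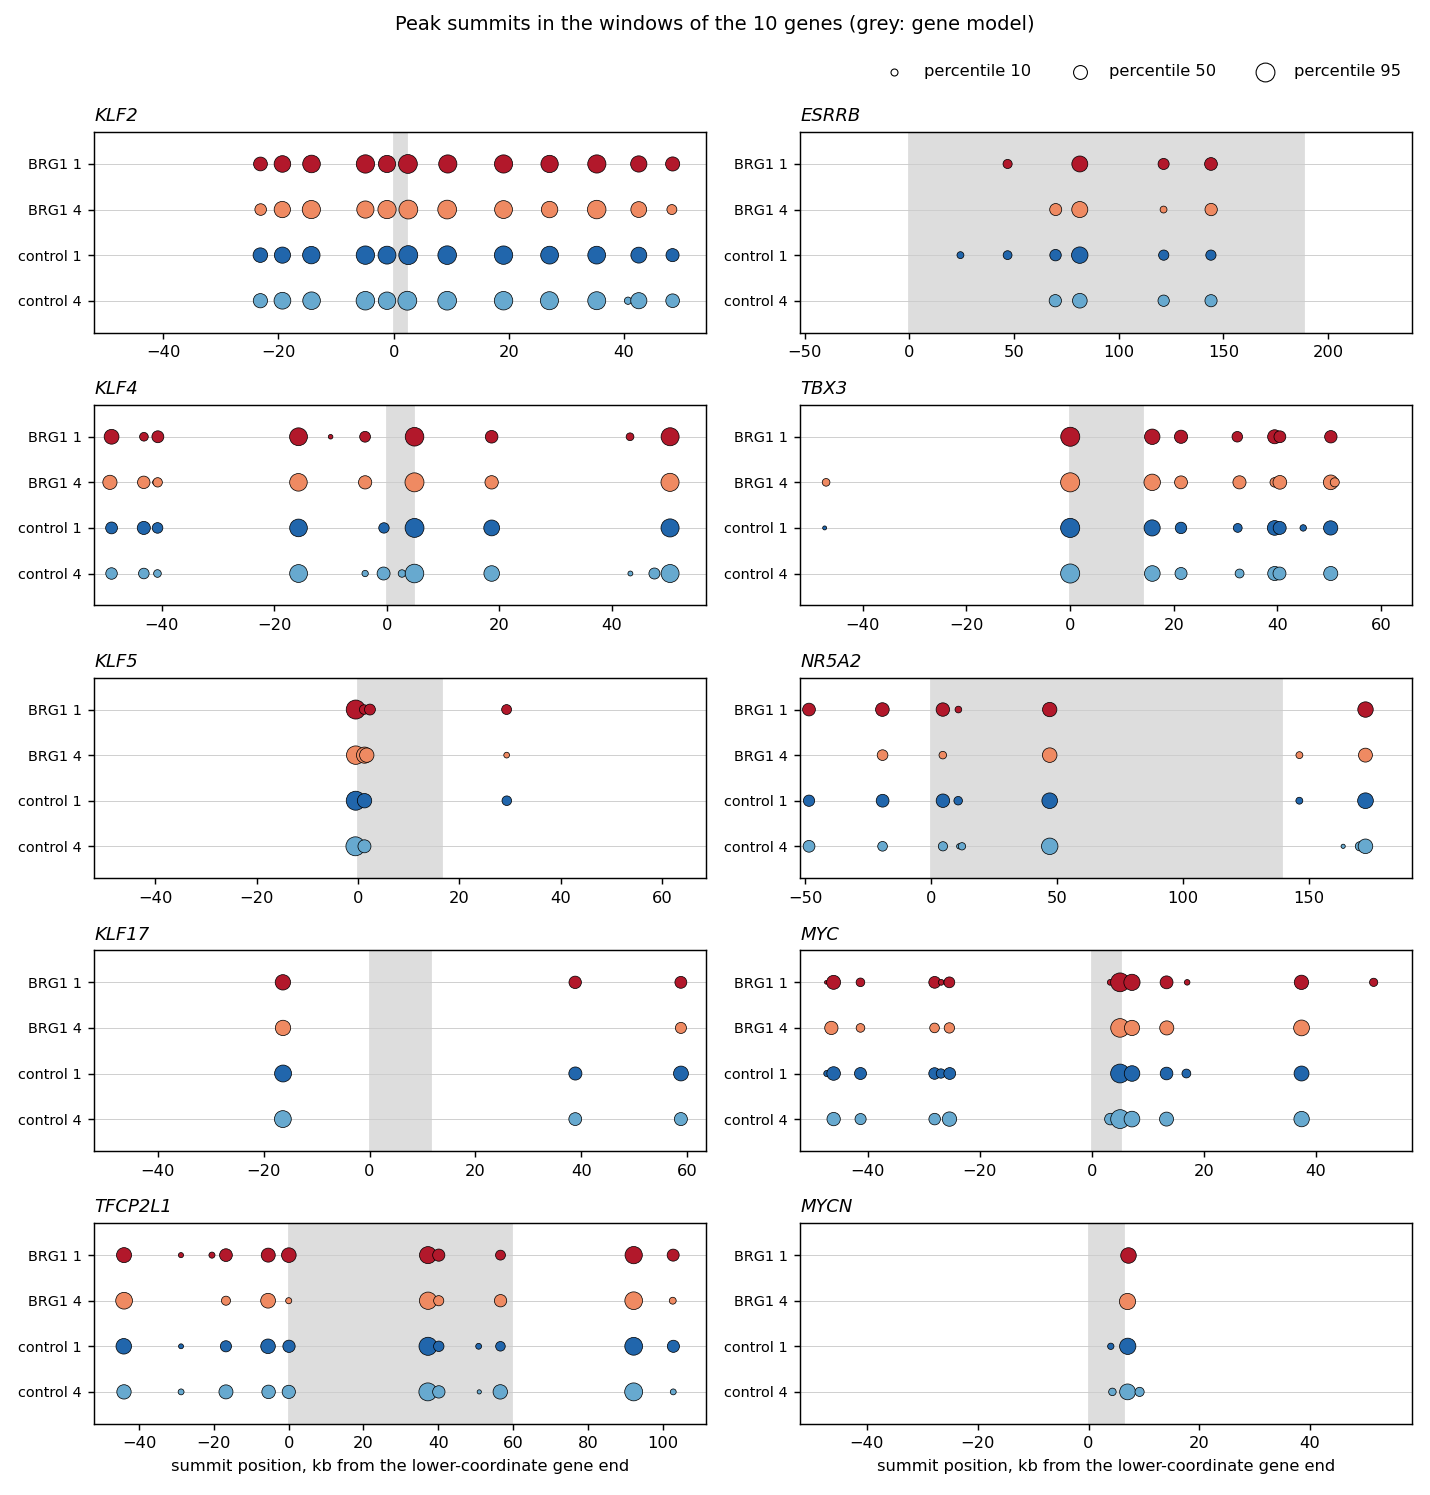
Each panel is the window of 1 gene, with the x axis in kb from the lower-coordinate end of the gene model (grey), each row 1 library and each circle the summit of the strongest peak of a region, its area rising with the percentile of −log10 p in that library. KLF2 shows the same 12 regions in all 4 rows, while MYCN shows 1 shared region at its higher-coordinate end and KLF17 shows no circle inside its model.

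Among the Krüppel-like factors, KLF2 had the highest share of regions found in every library. It lies on chromosome 2 from 61270733 to 61273037, and 12 of its 13 regions had a peak in all 4 libraries, with a median percentile of 83.7 against 60.6 for all such regions of the genome. The strongest, from 61272415 to 61273488, crossed the higher-coordinate end. Its peak reached 262 tags in BRG1 1 and 249 in BRG1 4, against 330 in control 1 and 303 in control 4. The percentiles were 95.1 in BRG1 1 and 95.2 in BRG1 4, against 96.3 in control 1 and 95.5 in control 4, so that both BRG1 libraries lay just below both controls in lists of unequal length. A narrow region of 476 bp, 954 bp outside the lower-coordinate end, had its summit 1142 to 1145 bp from that end in every library, with 151 tags in BRG1 1 and 195 in BRG1 4, against 209 in control 1 and 178 in control 4. Further strong regions stood 6.39, 16.3 and 32.5 kb beyond the higher-coordinate end, all with percentiles over 84. The 1 region not shared, a peak of 18 tags in control 4, was weak.

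KLF4, on chromosome 1 from 248604817 to 248609574, carried its strongest region at the higher-coordinate end, from 248608868 to 248610241. This peak reached 231 tags in BRG1 1 and 274 in BRG1 4, against 303 in control 1 and 241 in control 4, and its summit lay 157 or 167 bp outside the model in every library. The groups overlapped, with percentiles of 93.0 and 96.8 in BRG1 1 and BRG1 4, against 95.8 and 93.0 in control 1 and control 4. Further strong regions flanked the gene, 15.2 kb below the lower end (percentiles 82.4 to 85.0) and 45.0 kb above the higher end (percentiles 86.5 to 87.7). The lower-coordinate end of KLF4 held 1 of the 3 control-only regions described further on, and a neighbouring region had the opposite order. From 248600818 to 248601129, 3.69 kb below that end, peaks of 29 tags in BRG1 1 and 39 in BRG1 4 stood against 20 tags in control 4 and no peak in control 1.

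KLF5, on chromosome 11 from 45370009 to 45386673, had an isolated strong end and little else. The region from 45369267 to 45370462 across its lower-coordinate end reached 278 tags in BRG1 1 and 165 in BRG1 4, against 303 in control 1 and 288 in control 4. BRG1 4 was the low library there, at percentile 91.0 against 96.7 to 97.2 in the other 3. A second region, 796 bp inside the model, had percentiles of 21.8 in BRG1 1 and 69.1 in BRG1 4, against 54.1 in control 1 and 43.4 in control 4, so that the BRG1 libraries lay on both sides of the controls. Each BRG1 library had 1 further peak just inside the model that no other library had, of 53 tags in BRG1 1 (2.22 kb inside) and of 64 tags in BRG1 4 (1.63 kb inside). These peaks did not overlap each other. No region was shared by all libraries in the rest of the window.

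KLF17, on chromosome 6 from 167176834 to 167188418, had no peak inside its model or at its ends in any library. Its nearest region lay 15.9 kb below the lower-coordinate end, from 167160157 to 167160973, with 33 tags in BRG1 1 and 30 in BRG1 4, against 53 tags in each control. A second shared region, 47.0 kb above the higher end, had 21 tags in BRG1 1 and 19 in BRG1 4, against 34 in control 1 and 26 in control 4. At both shared regions, the 2 BRG1 libraries were lower than the 2 control libraries before any scaling for depth. The third region, 27.2 kb above the higher end, had 20 tags in BRG1 1, 23 in control 1 and 22 in control 4 and no peak in BRG1 4.

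TBX3 carried the end peak of highest mean percentile among the 10 genes. On chromosome 14 from 37582704 to 37596767, its lower-coordinate end lay in a region of 1603 bp, the broadest of the 92. The peak reached 322 tags in BRG1 1 and 320 in BRG1 4, against 395 in control 1 and 368 in control 4, at percentiles of 97.4 and 97.9 in BRG1 1 and BRG1 4, against 98.1 and 97.9 in control 1 and control 4. Its mean percentile of 97.8 was higher than or equal to 86.5% of the 13470 coding genes with a shared end region. The summit lay 52 bp inside the model in BRG1 1 and 37 bp inside in the other 3 libraries. The remaining 6 shared regions of TBX3 all lay above the higher-coordinate end, 1.15 to 35.9 kb away, and the only region on the other side, 46.7 kb below the model, was weak and was found in BRG1 4 and control 1.

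TFCP2L1 had the weakest shared end of the 7 genes that had one. The gene lies on chromosome 15 from 30072142 to 30131810, and the region from 30071818 to 30072800 covered its lower-coordinate end with 35 tags in BRG1 1 and 11 in BRG1 4, against 22 in control 1 and 28 in control 4. The percentiles were 56.1 in BRG1 1 and 6.74 in BRG1 4, against 38.5 in control 1 and 45.3 in control 4, so the BRG1 libraries were the highest and the lowest. This end ranked at percentile 5.16 among coding genes with a shared end region. Stronger regions lay away from the ends. A region inside the model, 22.0 kb from the higher-coordinate end, had 68 tags in BRG1 1 and 69 in BRG1 4, against 119 in control 1 and 111 in control 4. The strongest by mean percentile (83.4), 32.2 kb above the model, had 63 tags in BRG1 1 and 65 in BRG1 4, against 86 in control 1 and 92 in control 4.

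The orphan nuclear receptor genes were both long and sparsely open. ESRRB, on chromosome 7 from 99511135 to 99699478, had 6 regions, all inside its model, and no region in the 50 kb on either side. The strongest, from 99592279 to 99592915 and 81.1 kb inside the lower-coordinate end, had 39 tags in BRG1 1 and 34 in BRG1 4, against 46 in control 1 and 30 in control 4. The nearest region shared by all libraries lay 43.8 kb inside the higher-coordinate end. NR5A2, on chromosome 10 from 22727865 to 22866905, had 10 regions, of which 4 were shared. Its strongest, from 22774484 to 22775048 and 46.6 kb inside the lower-coordinate end, had 27 tags in BRG1 1 and 25 in BRG1 4, against 37 in control 1 and 46 in control 4. The shared region nearest to an end was 4.39 kb inside the lower-coordinate end and split by replicate number rather than by group, with percentiles of 46.7 in BRG1 1 and 12.4 in BRG1 4, against 47.0 in control 1 and 20.2 in control 4.

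MYC and MYCN differed in how much open chromatin surrounded them. MYC, on chromosome 4 from 12455141 to 12460360, had 14 regions, 8 of them shared, with the strongest from 12459738 to 12460844 across the higher-coordinate end. It reached 244 tags in BRG1 1 and 193 in BRG1 4, against 278 in control 1 and 261 in control 4, at percentiles of 95.1 and 92.5 in BRG1 1 and BRG1 4, against 95.3 and 95.2 in control 1 and control 4. All 4 summits lay 168 to 188 bp inside the model. Weak peaks made the count around MYC uneven, at 14 peaks in BRG1 1 and 8 in BRG1 4, against 11 in control 1 and 10 in control 4. MYCN, on chromosome 3 from 121543201 to 121549678, had a single shared region, from 121549607 to 121550426 at its higher-coordinate end, where a pseudogene model overlaps the gene. It held 51 tags in each BRG1 library, against 64 in control 1 and 59 in control 4, and the percentiles overlapped, at 63.9 and 69.7 in BRG1 1 and BRG1 4, against 70.2 and 66.3 in control 1 and control 4. A second region at this end, from 121549279 to 121549570, was a weak peak of 17 tags in control 1 alone.

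**Figure D3:**
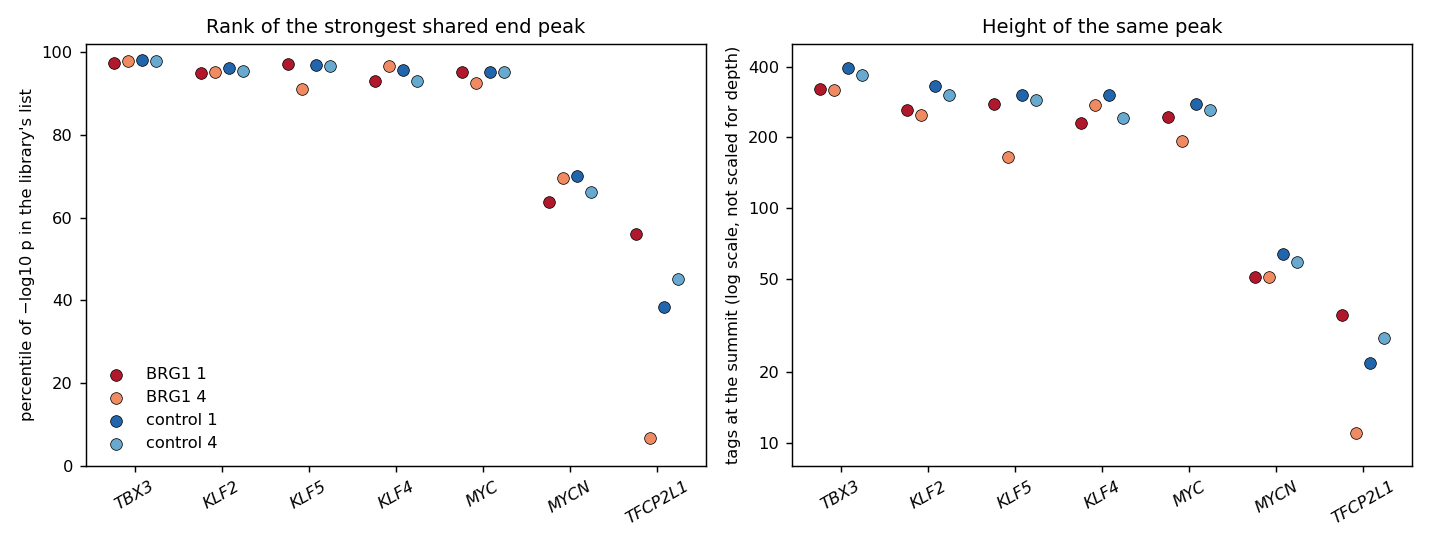
For the 7 genes with a shared end region, the left panel gives the percentile of −log10 p of the strongest end peak in each library's own list and the right panel its height in tags at the summit on a log axis, with 1 point a library. TBX3, KLF2, KLF5, KLF4 and MYC lie above percentile 90 in every library, and TFCP2L1 spreads from 6.74 in BRG1 4 to 56.1 in BRG1 1.

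The strongest shared region of the window lay at an end of the gene for 6 of the 10 genes (KLF2, KLF4, KLF5, TBX3, MYC and MYCN) and elsewhere for the other 4. Neither this share nor the split by place that follows was computed over all coding genes, so both describe these windows only. The 9 shared end regions had a median percentile of 94.5 and a median width of 1074 bp, and their peaks a median of 220 tags (range 11 to 395). The 46 shared regions elsewhere had a median percentile of 49.1, a median width of 622 bp and a median of 29 tags (range 11 to 189). The 37 regions with peaks in 1 to 3 libraries had a median percentile of 11.4 and a median of 15 tags (range 9 to 64), so peaks missing from some lists were mostly weak ones.

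BRG1 and control libraries were then compared over the windows as a whole. Peaks in the windows numbered 74 in BRG1 1 and 63 in BRG1 4, against 73 in control 1 and 75 in control 4, with a BRG1 mean of 68.5 ± 7.78 and a control mean of 74.0 ± 1.41 (SD over 2 libraries each, two-sided exact permutation p = 0.667). The ratio of 0.926 compares with 0.877 for all peaks of the lists. As a share of each list this was 0.0768% in BRG1 1 and 0.0693% in BRG1 4, against 0.0679% in control 1 and 0.0708% in control 4. The BRG1 mean share was 0.0731 ± 0.00526% and the control mean 0.0694 ± 0.00202% (SD over 2 libraries each, same exact permutation test, p = 0.667). Base pairs under peaks came to 34729 in BRG1 1 and 38449 in BRG1 4, against 36871 in control 1 and 33707 in control 4, with a ratio of means of 1.04 (exact permutation p = 0.667), against 0.989 for all peaks. None of the 3 differences exceeded the spread between libraries, and 0.333 is the smallest p this test can give with 2 against 2.

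**Figure D4:**
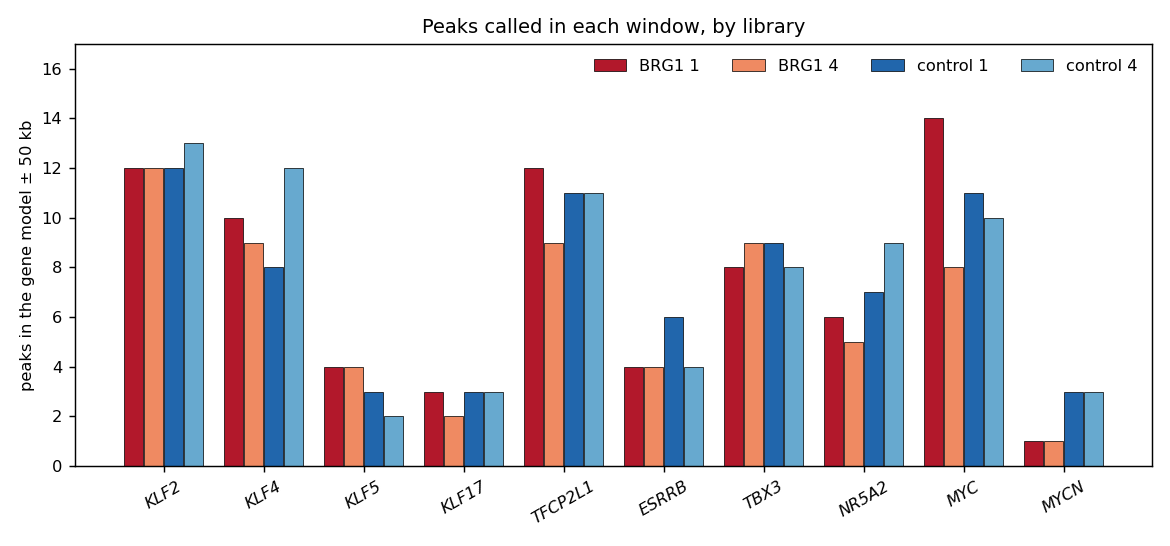
Bars give the number of peaks in the gene model with 50 kb on both sides, for each gene and library, with BRG1 libraries left of control libraries. MYCN has 1 peak in each BRG1 library and 3 in each control library, KLF5 has 4 in each BRG1 library against 3 and 2 in the controls, and most other windows overlap.

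Per gene, the 2 BRG1 libraries had fewer peaks than the 2 controls around MYCN (1 and 1, against 3 and 3) and NR5A2 (6 and 5, against 7 and 9), as did 28.6% of all coding genes. The BRG1 lists were the shorter ones. They had more around KLF5 alone (4 and 4, against 3 and 2), an order found at 1.18% of coding genes. No KLF5 region was called in both BRG1 libraries and in neither control, as each BRG1 library had 1 further peak of its own. With lists of equal length, the 90851 peaks of lowest p in each library, the order at MYCN and NR5A2 was lost. The BRG1 libraries then had more peaks around KLF4 (9 and 9, against 8 and 8), KLF5 (4 and 4, against 3 and 2) and TBX3 (8 and 9, against 7 and 7), as did 7.63% of coding genes, and fewer around none of the 10, against 9.69% of coding genes.

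A peak in all 4 libraries was found at 55 of the 92 regions (59.8%), against 61.8% of all regions. No region of the 10 loci had a peak in both BRG1 libraries and in neither control, which held for 0.741% of all regions. A peak in both controls and in neither BRG1 library was found at 3 regions (3.26%), against 4.41% of all regions, so both counts were near the background. Of the 3 control-only regions, that at KLF4, from 248604119 to 248604391 and 426 bp outside the lower-coordinate end, had 40 tags in control 1 and 50 in control 4, at percentiles of 26.6 and 43.3, where the median of all control-only regions was 16.5. The other 2 were weaker. That inside MYCN, from 121547150 to 121547620 and 2.06 kb from the higher-coordinate end, had 20 tags in control 1 and 23 in control 4. That inside TFCP2L1, from 30122851 to 30123230, had 11 tags in control 1 and 9 in control 4, and the 2 control peaks overlapped only in part. With lists of equal length the calls at MYCN and TFCP2L1 were lost, that at KLF4 was kept, and the region 3.69 kb below KLF4 became BRG1-only. Each class then held 1 of 78 regions, against 2.04% of all regions for each class, so the excess of control-only over BRG1-only regions in the genome was not seen at equal length. At 1.31% of coding genes a control-only region lay within 1 kb of a gene end, as at KLF4, and at 0.772% in lists of equal length.

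The orders of percentiles given gene by gene above rest on lists of unequal length. Ranks were therefore set side by side again in lists of equal length, where 53 shared regions of the 10 loci remained. Both BRG1 percentiles lay above both control percentiles at 12 of them (22.6%, against 19.5% of all shared regions) and below at 8 (15.1%, against 18.3%). The other 33 overlapped. The median difference, BRG1 minus control, was 2.02 percentile points at the 10 loci and 0.0173 over all shared regions. Both shares lay within a few points of those of all shared regions.

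Among regions without overlap, the widest gap was at KLF4, 48.7 kb below its lower-coordinate end (248555347 to 248556141). There the percentiles in lists of equal length were 55.0 in BRG1 1 and 52.6 in BRG1 4, against 23.6 in control 1 and 22.4 in control 4. Unscaled tags there were 37 in BRG1 1 and 28 in BRG1 4, against 22 in control 1 and 23 in control 4. Of the 6 shared regions of KLF4, 3 were higher in BRG1, 1 was lower and 2 overlapped, the end peak among them. The other higher ones, 15.2 kb below and 45.0 kb above the model, differed by 2.02 and 2.09 points. The lower one lay 13.4 kb above the higher-coordinate end (248622978 to 248623637) and stood at 37.2 in BRG1 1 and 46.1 in BRG1 4, against 59.9 in control 1 and 57.9 in control 4. It had 21 tags in each BRG1 library, against 39 in control 1 and 38 in control 4. At TBX3 the region 18.1 kb above the higher-coordinate end stood at 23.0 in BRG1 1 and 44.4 in BRG1 4, against 3.15 in control 1 and 4.92 in control 4. Tags of its strongest peak were 16 in BRG1 1 and 20 in BRG1 4, against 14 in each control. A further TBX3 region, 7.18 kb above that end, stood at 41.6 in BRG1 1 and 42.7 in BRG1 4, against 20.7 in control 1 and 26.4 in control 4. Its tags were 31 in BRG1 1 and 27 in BRG1 4, against 26 in control 1 and 27 in control 4. The groups thus met in tags. In ESRRB the region 43.8 kb inside the higher-coordinate end stood at 38.3 in BRG1 1 and 38.8 in BRG1 4, against 12.0 in control 1 and 27.3 in control 4. Its tags were 21 in BRG1 1 and 18 in BRG1 4, against 16 in control 1 and 20 in control 4, which overlapped. Both shared regions of KLF17 were lower in BRG1. The nearer one stood at 59.9 in BRG1 1 and 62.1 in BRG1 4, against 71.7 in control 1 and 71.6 in control 4. The farther one stood at 31.9 in BRG1 1 and 30.5 in BRG1 4, against 50.1 in control 1 and 34.5 in control 4. The strongest region of NR5A2 was lower too, at 50.9 in BRG1 1 and 55.4 in BRG1 4, against 57.7 in control 1 and 67.1 in control 4. At the strongest end region of all 7 genes that had one, the BRG1 and control libraries overlapped. These regions were picked with their values in view and carry no test.

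**Figure D5:**
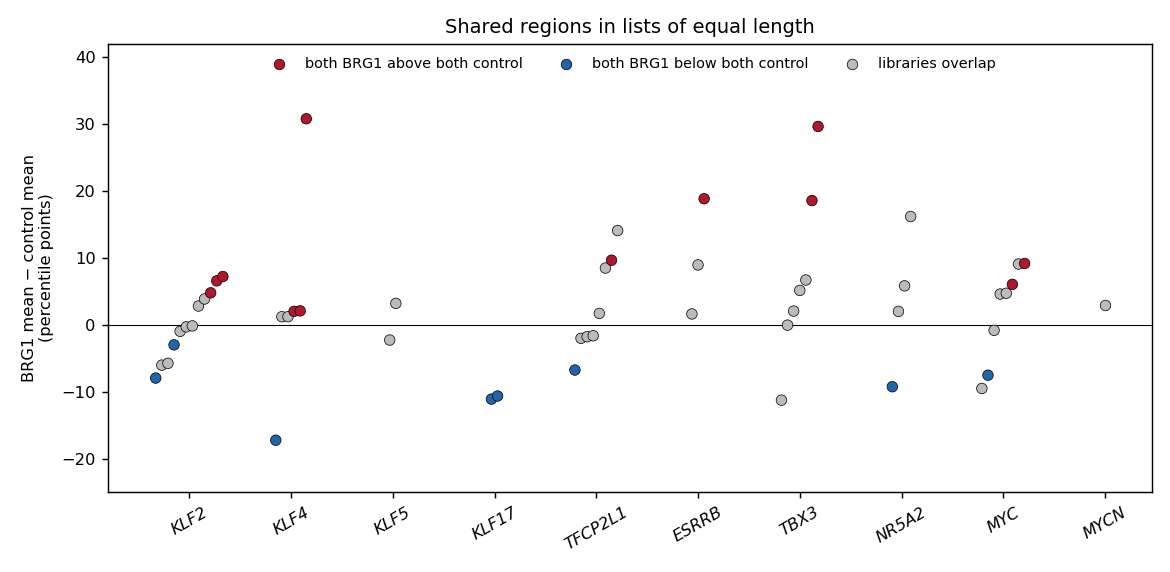
Each point is a region with a peak in all 4 lists of equal length, placed by gene, and the y axis gives the mean percentile of the 2 BRG1 libraries minus that of the 2 control libraries. Red points (12) have both BRG1 libraries above both controls, blue points (8) below, and grey points (33) overlap, with the highest at KLF4 (30.8) and the lowest also at KLF4 (−17.3).

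The partners of these factors were read from further lists: of 58 genes 56 matched, and 42 had an end peak in all 4 libraries, where 68.2% of all coding genes had one. The shares of the single lists lay on both sides of that level. All 12 MYC network genes did. Among them were MAX, the partner of MYC, at a mean percentile of 99.7, and the MYC antagonists MXD1 (99.7), MXD4 (99.4) and MNT (97.8). The median over coding genes with a shared end region was 89.0. Below it lay MLX (88.5), the antagonist MXI1 (86.8), ZBTB17 (84.6), MYCL (82.3) and MLXIPL (30.8). Of the 13 other Krüppel-like genes 11 did, from KLF7 at 99.4 and KLF13 at 98.4 down to KLF8 at 69.6 and KLF14 at 37.5. The nearest peak of KLF1, the erythroid factor, fell on both sides of the 1 kb limit. It was a strong region shared by all 4 libraries, 1123 bp from the end in BRG1 1 and 951 bp in BRG1 4, against 1165 bp in control 1 and 1128 bp in control 4. KLF12 had an end peak in BRG1 1 alone, at percentile 22.5. In the other libraries its nearest peak lay 1899 to 1910 bp from an end, in a region shared by all 4. The percentiles there were 52.3 in BRG1 4, 58.4 in control 1 and 46.9 in control 4. Of the 9 SP genes, close relatives of the KLF family, 7 did, from SP1 at 99.8 down to SP9 at 40.9. SP3 and SP6 had none. Among LIF, STAT3 and naive network genes 8 of 15 had one in all 4 libraries. They included the signalling genes STAT3 (99.6), JAK2 (99.5) and IL6ST (97.4), the shared receptor subunit. JAK1 stood at 82.0, and FGF4 was the lowest of the 8 at 45.1. LIF itself, DPPA3, DPPA5, ZFP42, SALL4 and NR0B1 had none, and PRDM14 had one in BRG1 4 and control 4. Of the relatives of ESRRB, NR5A2 and TBX3, the genes ESRRA, TBX2 and TBX5 had one in all 4 libraries, ESRRG and NR5A1 had none, and TBX4 had one in control 4. UBP1, a relative of TFCP2L1, had one in all 4 libraries (99.3).

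A BRG1-only region lay at an end of 2 of the 56 genes, against 0.348% of coding genes, and a control-only region at none, against 1.31%. In lists of equal length the call at STAT3 was lost and that at GBX2 was kept, which left 1 of the 56 genes, against 0.844% of coding genes. Both genes belong to the LIF and STAT3 list. At STAT3, the transcription factor that LIF activates, the region ran on chromosome 12 from 20407668 to 20408421, 352 bp inside the lower-coordinate end, with 43 tags in BRG1 1 and 75 in BRG1 4 and percentiles of 0.350 and 43.2. At GBX2, a homeobox gene downstream of LIF in mouse stem cells, it ran on chromosome 15 from 136031911 to 136032224, 344 bp inside the higher-coordinate end, with 26 tags in BRG1 1 and 28 in BRG1 4 and percentiles of 7.78 and 18.0. Both genes also had stronger end regions in all 4 libraries, and the counts of 2 and 1 genes are given as a description.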

How the data were processed

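For each library the authors deposited a narrowPeak table. FastQC, BWA, Bowtie, SAMtools and MACS2 and the build Sscrofa11.1 are named without version or role, per the submitters' processing notes. Of the Tn5 shift, duplicate handling and caller settings, none is stated in the sources used here. The deposited fold is a ratio of summit pileup to local background. Each deposited −log10 value (p-value or q-value) belongs to 1 library, and the deposited score is 10 times the −log10 q-value. These were used only within a list. Fold and p-value together gave a whole-number summit pileup for every peak printed and for each of 2456 to 2905 peaks sampled per list (relative tolerance 0.0001). The lowest background of the sampled peaks gave relative depth. Without absolute depth, counting intervals could not be given.

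Regions, windows, percentiles (ties averaged), lists of equal length and two-sided exact permutation tests were computed in Python 3.11.15 with numpy 2.4.6, pandas 2.3.3 and scipy 1.17.1, and checked on simulated data. Gene positions came from a RefSeq table of the same build without strand, so gene ends stood in for transcription starts. No sequence was used, and the planned promoter motif search was not run. Of the listed genes, LIFR and TFCP2 and the markers KRT14 and MYH3 were not matched. All 10 genes were named, with end regions, the strongest region and every region private to a group. The genes, lists and tests were chosen with earlier results of these data known. The comparisons of peak numbers per gene, of ranks and of regions private to a group at gene ends, all in lists of equal length, were chosen after seeing the data, and the regions picked from them were chosen after their values were seen.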

Additional observations from a re-analysis of the deposited data

How the results depend on the processing

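In lists of equal length, the peak number ratio turned to 1.03, and there was 1 BRG1-only and 1 control-only region, both at KLF4 (2.04% of all regions in each class). A −log10 q of at least 5 also gave 1 and 1. A window of 10 kb turned the share difference to −0.000422 percentage points and the ratio of covered length to 0.984, and left 24 shared regions. A window of 100 kb gave 86 shared regions. Leaving out each library gave ratios of peak number from 0.851 to 1 and of covered length from 0.984 to 1.09, share differences from -9.79e-06 to 0.00744, BRG1-only regions from 1 to 6, control-only regions from 4 to 11, and 56 to 59 shared regions, with 3 lists in place of 4. The shares of all regions rose as well, to 1.87 to 4.44% BRG1-only and 7.42 to 11.07% control-only. The covered length turned to 0.984 without BRG1 4 and 0.992 without control 4, and the share difference turned to -9.79e-06 without BRG1 1. Control-only regions numbered 11 without control 1, 7 without BRG1 1, 6 without control 4 and 4 without BRG1 4. Between 6 and 7 genes had an end peak in all libraries in every setting run for it. With the replicate number as a block, the values were 0.923, 0.00371 and 1.04 for peak number, share and covered length (exact sign-flip p = 1 each, 0.5 being the lowest it allows). Libraries of the same number had deviations with a correlation of −0.0100 over all regions, so the numbers were not taken as pairs. In total 42 values kept their direction or stayed within 1.5 times, 13 moved and 6 turned, and apart from fewer or shorter lists and windows the cause was not tested. Absolute depth is unknown, so a missing peak means that none was called at that depth.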
